A study of Mus musculus with 2 samples.

Results

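The 8 genes described here carry the central steps by which a liver cell burns long-chain fatty acids in its mitochondria: Ppara, Cpt1a, Cpt2, Acadvl, Acadl, Acadm, Hadha and Hadhb. They were chosen by gene name on a whole-transcriptome microarray, and every probe for them was used, which gave 12 probes for 8 of the 20165 genes that could be compared. The measurements come from primary hepatocytes of 2 kinds of mice on a C57BL/6 background, with 1 array for each genotype. Drp1LiKO mice are Alb-Cre Tg/+ and Drp1flox/flox, so that an albumin-driven recombinase deletes Drp1 (gene symbol Dnm1l), the dynamin-related GTPase that divides mitochondria, in hepatocytes. The control cells came from Drp1flox/flox littermates without the recombinase, which the sample labels call wild type, so both groups carry the floxed alleles. Mice had free access to chow, and the age and sex of the animals used for the arrays are not given in the sources used here. Hepatocytes were released with collagenase and pelleted at low speed, which enriches hepatocytes without sorting them. They were plated on collagen in medium with 4500 mg/L glucose, 1 µM insulin, glutamine, penicillin, streptomycin and 10% fetal bovine serum, and RNA was taken 24 h after seeding. The comparison asks whether transcripts for fatty acid oxidation differed between cells with and without the fission protein.

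Long-chain fatty acids enter the mitochondrial matrix as carnitine esters. CPT1A, on the outer membrane, makes the ester and is inhibited by malonyl-CoA, the first product of fatty acid synthesis, and CPT2 on the inner membrane turns it back into an acyl-CoA. Acyl-CoA dehydrogenases of decreasing chain-length preference then start each turn of beta-oxidation, the trifunctional protein built from HADHA and HADHB completes it for long chains, and in fasted liver much of the acetyl-CoA leaves as ketone bodies. PPARα, encoded by Ppara, is the nuclear receptor that drives many of these genes during fasting, whereas insulin and glucose, both abundant in this medium, oppose ketogenesis.

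Each genotype had a single array. The values below therefore compare 2 arrays, without replicates and without a test of the genotypes. Signals are fluorescence intensities, and a ratio is the log2 scaled signal of Drp1LiKO minus that of control, each first reduced by its own array's 75th percentile. That percentile stood at 313 in control and 356 in Drp1LiKO, a difference of 0.18 on the log2 scale, so a slightly higher raw signal in Drp1LiKO can give a ratio near 0. A gene was called higher or lower when its Z score, the ratio in SDs around the mean of all compared probes, reached 2 or -2, which corresponds to ratios of 1.30 and -1.31, or 2.46-fold and 2.48-fold. By that rule 3.5% of the compared genes were higher and 2.81% were lower. The technical error was taken in a pair of ways: the spread of probes printed 10 times on each array, called spot noise here, and the error that the scanner software assigns to each spot, which was about 0.20 for a ratio of these genes. Neither contains the differences between animals or cultures. Dnm1l itself gave 2602 in control and 1217 in Drp1LiKO, a ratio of -1.28 with a Z score of -1.95, just short of the threshold. Its other probe was weak on both arrays, at 22.8 and 20.9, and whether either probe lies within the deleted part was not analysed here.

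None of the 8 genes was called: 0 were higher and 0 were lower, beside the 3.5% and 2.81% of all compared genes. All 12 probes were well above background on both arrays, and no spot was an outlier or saturated. The 8 ratios lay between -0.66, for Cpt1a, and 0.12, for Ppara, with 5 below 0 and 3 above 0 and a median of -0.11. Over all compared genes the median was -0.05, and the middle 50% of genes ran from -0.27 to 0.21. The median size of the ratio, taken without its sign, was 0.15 for the 8 genes, 0.24 for all compared genes and 0.20 for the 7904 genes whose signals lay within the range of these 8. In bulk RNA such as this, fewer cells of a type and less RNA per cell cannot be told apart.

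**Figure D1:**
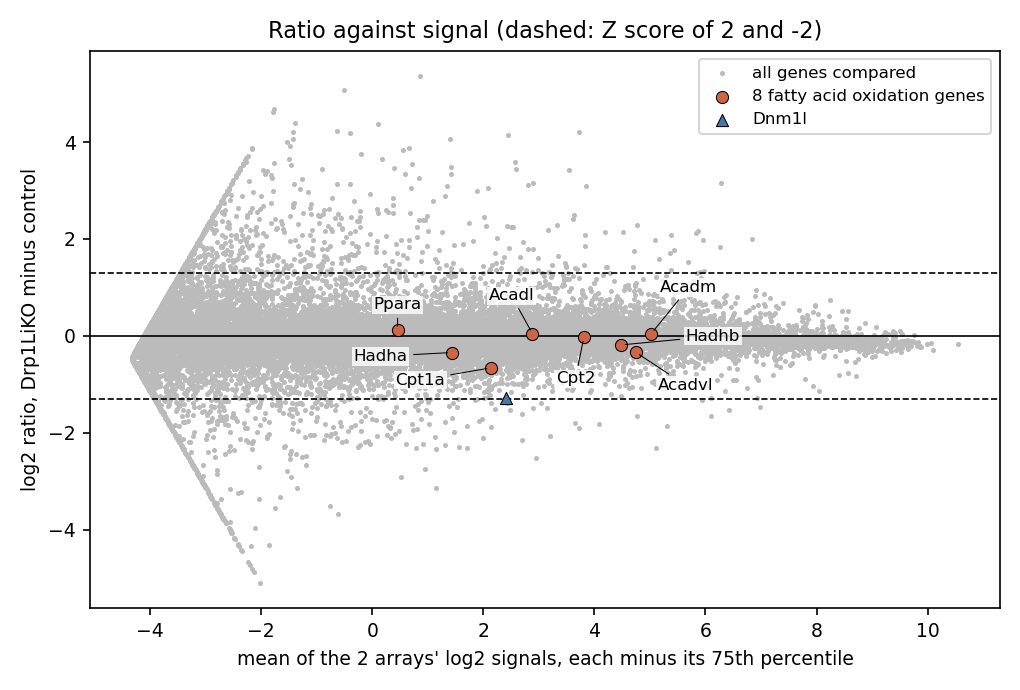
Log2 ratio, Drp1LiKO minus control, against the mean scaled log2 signal of the 2 arrays for every compared gene (grey, 1 point per gene at its brightest probe), with the 8 fatty acid oxidation genes in red and Dnm1l as a triangle. Dashed lines mark the ratios of 1.30 and -1.31 at which a gene was called. All 8 genes lie between the lines, Cpt1a lowest at -0.66.

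Ppara, the receptor gene, was read by 2 probes on chromosome 15, and their ratios differed by less than the error of either. The brighter probe (NM_011144, mm9 chr15:85632110-85632169, + strand) gave 413 in control and 508 in Drp1LiKO. After scaling, this was a ratio of 0.12, or 108% of control, against a spot noise of 0.11, and 67.2% of all compared genes had a lower ratio. The other probe (chr15:85637193-85637252) gave 90.4 and 115, a ratio of 0.17 with a spot noise of 0.23. Ppara transcript was therefore slightly higher by ratio in Drp1LiKO at both places, by amounts close to what repeated spots on an array show.

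Cpt1a, the gatekeeper of entry into mitochondria, had the lowest ratio of the 8 genes. Its single probe (NM_013495, mm9 chr19:3385374-3385433, + strand) gave 1732 in control and 1242 in Drp1LiKO. The scaled signal in Drp1LiKO was 63.2% of control, a ratio of -0.66, or 1.58-fold lower, with a Z score of -1.0. Of all compared genes, 8.73% had a lower ratio. The difference was 6.2 times the spot noise of 0.11 and 3.24 times the software's error of 0.20, and Cpt1a was the only one of the 8 genes beyond 2 of the latter. Because a single probe carries this value, its middle bases, 16 to 45 of 60 as listed in the array file, are shown with those of the 3 other genes that differed by more than 2 spot noises. All are in lower case because no base is singled out.
Cpt1a: ctaacctctgttactcggagtattcctgct
Acadvl: gccttctctgatgccaaaaccctttatggg
Hadha: accaaggctagccttgggcttgctcctcca
Hadhb: catttgcagatactccttattcctgtctgt

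Cpt2, which releases the acyl-CoA inside the mitochondrion, did not share the low ratio of Cpt1a at its bright probe. That probe (NM_009949, mm9 chr4:107576571-107576610, - strand, where 40 of its 60 bases are placed) gave 4442 in control and 4924 in Drp1LiKO. The ratio was -0.03, or 97.7% of control, with a spot noise of 0.09. A weak second probe (chr4:107580325-107580384) gave 75.2 and 69.1, a ratio of -0.31 with a spot noise of 0.25. The 2 probes of Cpt2 therefore differed in ratio by about the error of the weaker one.

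The acyl-CoA dehydrogenases did not share a direction. Acadvl, which acts on the longest chains (NM_017366, mm9 chr11:69823722-69823781, - strand), gave 9480 in control and 8482 in Drp1LiKO. Its ratio was -0.34, or 78.9% of control, which is 4.66 times its spot noise of 0.07 but 1.68 times the software's error. Acadl, the long-chain enzyme (NM_007381, mm9 chr1:66877452-66877511, - strand), gave 2277 and 2665, a ratio of 0.04. Acadm, the medium-chain enzyme (NM_007382, mm9 chr3:153585469-153585528, - strand), gave 10036 and 11756, a ratio of 0.05. Acadl and Acadm were both within 1 spot noise of 0, at 103% of control each.

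Both subunits of the trifunctional protein had ratios below 0 at their brightest probes. Hadha, the alpha subunit with the hydratase and the long-chain dehydrogenase (NM_178878, mm9 chr5:30446215-30446274, - strand), gave 951 in control and 850 in Drp1LiKO. This was a ratio of -0.35, or 78.7% of control, 3.23 times its spot noise. Hadhb, the beta subunit with the thiolase (NM_001289798, mm9 chr5:30510925-30510984, + strand), gave 7469 and 7439, a ratio of -0.19, or 87.8% of control and 2.09 times its spot noise. A second Hadhb probe, at chr5:30503442-30503500, gave 978 and 964, a ratio of -0.20, nearly the same as the brightest. The third, at chr5:30494754-30494813, is the only one of the 12 whose listed transcript (ENSMUST00000127364) is not a RefSeq transcript of its gene. It was weak, with 47.9 in control and 66.9 in Drp1LiKO, and its ratio of 0.30 had the opposite sign with a spot noise of 0.26. At their brightest probes Hadhb and Hadha differed by 0.16, less than the combined software error of 0.29.

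**Figure D2:**
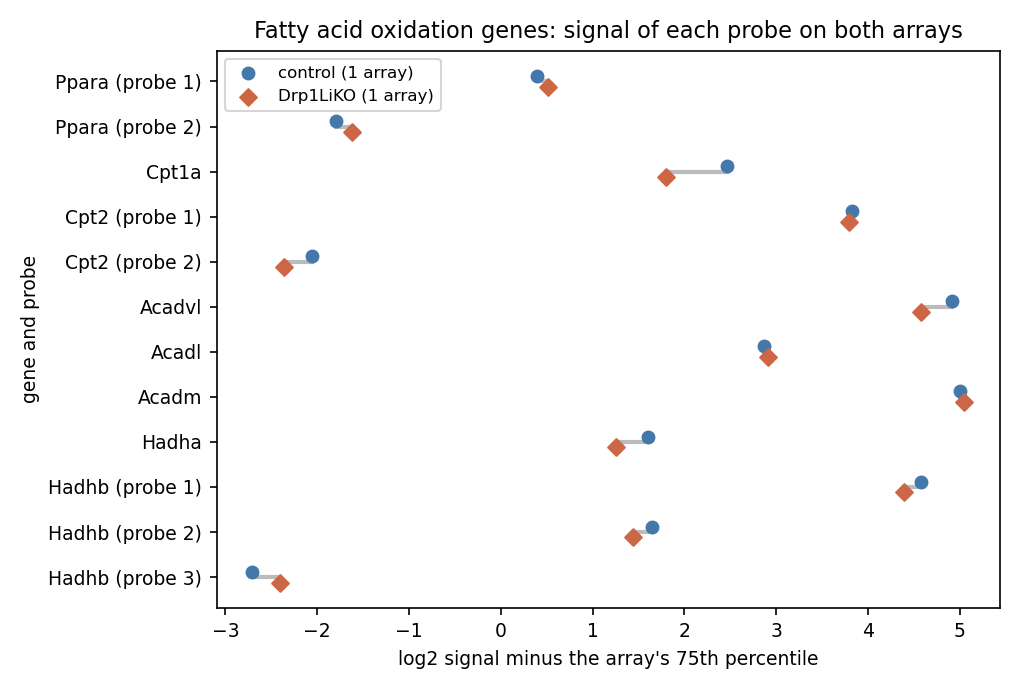
Scaled log2 signal of each of the 12 probes on the control array (circles) and the Drp1LiKO array (diamonds), with a grey line joining the 2 arrays. Probe 1 of a gene is its brightest. Cpt1a shows the widest gap, from 2.47 in control to 1.80 in Drp1LiKO, while the symbols of Acadl, Acadm and the bright Cpt2 probe nearly coincide.

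Ordered by ratio, the genes ran Cpt1a, Hadha, Acadvl, Hadhb, Cpt2, Acadl, Acadm and Ppara. Of the 7 steps between neighbours in this order, 3 exceeded their combined spot noise. Cpt1a lay 0.32 below Hadha, against a noise of 0.15, and this was the only step above the combined software error of 0.29. Acadvl lay 0.15 below Hadhb and Hadhb 0.15 below Cpt2, against noises of 0.12 and 0.13. Hadha and Acadvl differed by 0.0023 and Acadl and Acadm by 0.0015, so these pairs could not be separated, nor could Cpt2 and Acadl, or Acadm and Ppara.

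**Figure D3:**
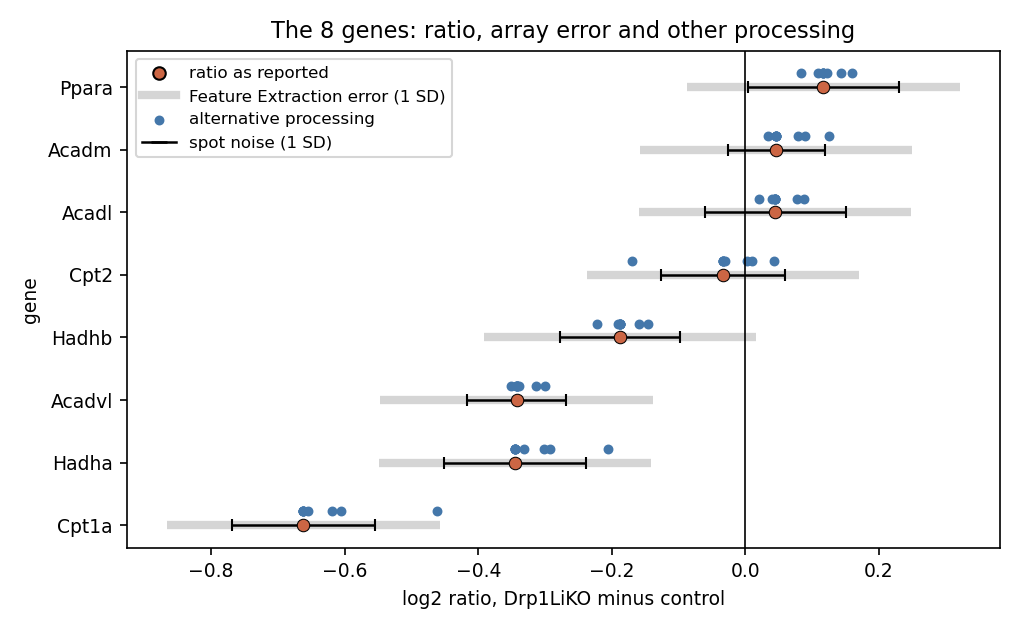
Log2 ratio of each of the 8 genes (red), with spot noise as a black bar, the scanner software's error as a grey band (1 SD each), and the value under each alternative processing in blue. Cpt1a stays between -0.66 and -0.46, and Cpt2 is the only gene with values on both sides of 0.

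Hadha and Hadhb are neighbours that start next to each other on opposite strands, and their start regions are shown because these are the 2 genes of one protein complex. In RefSeq (build GRCm38.p6) their starts lie 272 bases apart, at chr5:30154981-30155252, and this is printed on the + strand, with the start of Hadha to its left and that of Hadhb to its right. The capitals mark GGGCGG, the core of a GC box, which occurs 2 times, and 60.3% of the bases are G or C.
Hadha and Hadhb: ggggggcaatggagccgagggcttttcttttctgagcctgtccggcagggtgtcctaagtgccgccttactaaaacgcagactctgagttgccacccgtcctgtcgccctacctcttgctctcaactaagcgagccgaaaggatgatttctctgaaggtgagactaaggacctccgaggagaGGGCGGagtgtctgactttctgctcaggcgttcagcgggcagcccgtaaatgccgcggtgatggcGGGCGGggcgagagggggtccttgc
The 250 bases before the start of Cpt1a, at chr19:3323051-3323300 on the + strand, are shown for the gene with the lowest ratio. Here the capitals mark TGACCT, the reverse complement of AGGTCA, the hexamer that nuclear receptors of the PPARα type recognise in pairs.
Cpt1a: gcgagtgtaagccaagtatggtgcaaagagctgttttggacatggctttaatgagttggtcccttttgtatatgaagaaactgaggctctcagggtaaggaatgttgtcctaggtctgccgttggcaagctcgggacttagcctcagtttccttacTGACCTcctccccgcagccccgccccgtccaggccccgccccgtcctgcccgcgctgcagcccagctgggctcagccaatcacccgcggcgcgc
Searched on both strands from 250 bases before to 50 after each start, AGGTCA occurred in 3 of the 8 windows, those of Acadm, Acadvl and Cpt1a, and in 16.3% of 32851 windows. The direct repeat of this hexamer with a single base between the copies, the usual PPARα element, occurred in 0 of the 8 windows and in 0.0396% of all. GGGCGG occurred in 6 of the 8 windows, all but those of Acadm and Acadvl, against 35.7% of all. CCAAT was found in the window of Cpt1a alone, against 37.4% of all, and TATAAA in 0 of the 8, against 13.6%. The windows of Hadha and Hadhb overlap by 228 bases and are not independent. These matches describe letters in short windows and say nothing about binding in these cells.

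The other genes of the pathway were taken by list, and each gene by its brightest probe. In the carnitine shuttle, 8 genes including Cpt1a and Cpt2, 0 were higher and 1 was lower. Cpt1c, the isoform known from brain, fell from 79.2 in control to 30.6 in Drp1LiKO, a ratio of -1.55, and its other probe gave -1.38. Over the processing settings the ratio of Cpt1c ran from -1.61 to -0.80, and its call held in 7 of the 11 alternatives. Cpt1b, the muscle isoform, was not well above background in control, at 20.1, and gave 19.4 in Drp1LiKO. Slc25a20, the carrier that exchanges acylcarnitine across the inner membrane, gave 285 and 330, a ratio of 0.03, whereas the deposited normalized values gave -2.01. Slc22a5, the carnitine importer, had a ratio of -0.56 at one probe and 0.06 at the other. Crat, the acetyltransferase, and Bbox1, the last enzyme of carnitine synthesis, had ratios of 0.12 and 0.47.

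The 20 listed genes of mitochondrial beta-oxidation, 5 of the 8 among them, stayed within a narrow range of ratios at their brightest probes. On both arrays all 20 exceeded background, and 0 were called. Their ratios ran from -0.35 for Hadha to 0.33 for Acaa2, the matrix thiolase, with a median of -0.16, 8 above 0 and 12 below. Acaa2 gave 21420 in control and 30501 in Drp1LiKO. Other detected probes went beyond this range, with -0.50 for Acadsb and 0.47 for Acad9.

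Of the genes around ketone bodies, those described here were not called. Ratios were below 0 for Acat1, the thiolase that makes acetoacetyl-CoA, at -0.34, for Bdh1, which forms 3-hydroxybutyrate, at -0.48, and for Slc16a1, a ketone body exporter, at -0.15. The other detected Bdh1 probe gave -0.16. In the deposited values the ratios were -0.09 for Acat1, -0.81 for Bdh1 and -0.25 for Slc16a1. Oxct1, the enzyme with which other tissues use ketone bodies, was detected on both arrays at 1216 and 1241, a ratio of -0.15. Its other probe gave -0.55.

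Uptake and activation of fatty acids held 1 called gene of 12, Cd36. This fatty acid translocase, which macrophages and endothelial cells also make, was 12.9 in control, not well above background, and 142 in Drp1LiKO, at least 6.85-fold higher. The remaining genes measured on both arrays ran from -0.41 for the transporter Slc27a4 to 0.89 for Fabp1, the liver fatty acid binding protein, which gave 3830 and 8072 and for which the deposited values gave 0.28. The list's median was 0.10. In peroxisomal oxidation, 14 of 15 genes were detected, 0 were called and the median was 0.02. There the ratios ran from -0.38 for Abcd3, a peroxisomal acyl-CoA transporter, to 0.87 for Ehhadh, the bifunctional enzyme, whose signals were 160 and 332.

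Omega-oxidation had the highest median of the pathway lists, 1.14 over 5 detected genes of 6, and all 5 ratios were above 0. Cyp4a32, also listed, was not on the array. Cyp4a14 was not well above background in control, at 3.96, and gave 25.7 in Drp1LiKO. Its ratio of 0.31 ran from -0.04 to 3.04 over the processing settings, so its sign was not kept. Cyp4a12a rose from 520 to 1546, a ratio of 1.39, and Cyp4a12b from 757 to 2336, a ratio of 1.44. These 2 fatty acid hydroxylases are close relatives whose probes may share target, so they may not be separate measurements. Cyp4a10, the lowest of the list among those measured on both arrays, had a ratio of 1.02.

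Genes that work with PPARα or are controlled by it included called genes in both directions. Of 12 partner genes, Ppara among them, 1 was called. The coactivator Ppargc1a rose from 133 to 489, a ratio of 1.69, with 1.80 at its other probe, while the receptor partner Rxrb was lowest at -0.21. Of 20 further known targets, 19 were detected, 2 were higher and 1 was lower, with a median of 0.40. Pdk4, the kinase that restrains pyruvate dehydrogenase, rose from 144 to 539, a ratio of 1.72. The cytosolic thioesterase Acot1 rose from 99.4 to 331, a ratio of 1.55. In the other direction Angptl4, the secreted inhibitor of lipoprotein lipase, fell from 30516 to 13878, a ratio of -1.32 with a Z score of -2.01.

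On the supply of malonyl-CoA, the inhibitor of CPT1, 1 of 3 genes was called. Acacb, the carboxylase at the mitochondrial surface, rose from 267 to 778, a ratio of 1.36, but only at its brightest probe, since the other 2 gave -0.09 and 0.04. Acaca, the cytosolic carboxylase, had a ratio of -0.14, with 5 other probes between -0.80 and 0.14. Mlycd, which breaks malonyl-CoA down, had 0.31, and -0.07 at its other probe. Fatty acid synthesis, 9 detected genes of 10, had 0 called, a median of -0.06, and ratios from -0.76 for the desaturase Scd1 to 1.02 for Thrsp, a lipogenic nuclear protein.

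**Figure D4:**
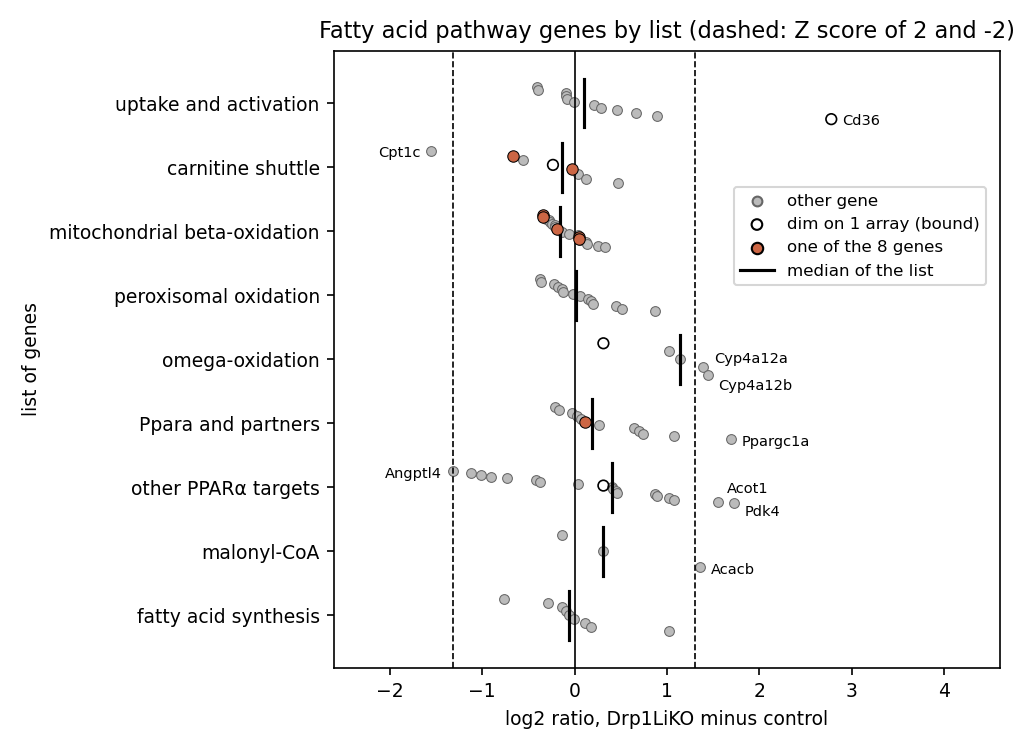
Log2 ratio, Drp1LiKO minus control, of each detected gene in 9 lists of fatty acid metabolism. Red points are the 8 genes, open points were not well above background on 1 array, the bar is the list's median, and the dashed lines are the calling thresholds. Called genes are named, and the mitochondrial beta-oxidation list lies wholly between the lines.

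Over the 86 other genes of these lists, the fatty acid synthesis list left out, 83 were detected, 43 with ratios above 0 and 40 below, with a median of 0.03. Of these, 7 were higher and 2 were lower, beside 3.5% higher and 2.81% lower among all compared genes. The higher ones include Cyp4a12a and Cyp4a12b, which may not be separate measurements. Of the 9 calls, 8 did not hold when dim signals were left without a floor (all but Cd36). The ratios of those 8 were the same as before, and the thresholds widened to 1.84 and -1.75 with the larger SD of all ratios. In the deposited normalized values, 7 did not hold (all but Cd36 and Pdk4) against thresholds of 1.70 and -1.74, while all 9 ratios kept their sign. Among the 7, the deposited ratios of Cyp4a12a, Cyp4a12b and Cpt1c were 1.54, 1.60 and -1.60, and the smallest was 1.16 for Ppargc1a.

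Markers of other liver cells moved between the same 2 arrays. All 16 detected Kupffer cell and macrophage markers of 18 had ratios above 0, with a median of 2.42 and 13 called, and their summed signal was 5077 in control and 22222 in Drp1LiKO. Clec4f, Vsig4, Msr1, Fcgr1 and Laptm5 were not well above background in control, and Timd4 and Cd163 were so on neither array. Of 13 endothelial markers, 12 were above 0 with a median of 1.26, 6 were called, and the sum was 5013 and 10573. Of the 13, 11 were measured on both arrays, and Tek and the called Lyve1 were not well above background in control. Stellate cell markers, 9 detected of 11, had a median of 1.04, 4 were called, and the sum was 21958 and 30159. Only 5 of them were measured on both arrays. Des, Rgs5 and the called Col3a1 and Pdgfrb were not well above background in control. Acta2 made up most of the stellate sum, at 21437 and 24640, and the other 8 summed to 521 and 5519, while Lrat and Hand2 were not detected. Hepatocyte markers, 17 detected of 18, had a summed signal of 911380 and 1030500, a median of 0.19 and 1 called. Of these, 16 were measured on both arrays, and Pck1 was not well above background in control, at 11.7. Not all were strong, since Cps1 gave 65.4 in control and 116 in Drp1LiKO. The part of these shifts in the values of the 8 genes, or of Cd36, was not tested.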

How the data were processed

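Total RNA of 1 control and 1 Drp1LiKO hepatocyte culture was labelled with Cy3 and hybridised to 60-mer mouse arrays on 1 slide. The authors deposited each array's Feature Extraction output, whose background-corrected intensity values were used here, and a table of normalized intensity values, used as an alternative. The labels name software version 9.5.1.1 and the file headers 10.7.1.1. Control spots and outlier spots were dropped, log2 intensities averaged per probe, and each array's 75th percentile subtracted. Of 56605 probes, 48.2% in control and 52.1% in Drp1LiKO were well above background, and 30275 probes so on at least 1 array were kept. Dimmer signals of kept probes were raised to the lowest signal that passed on that array where they lay below it. A gene was represented by its brightest probe, and called at a Z score of 2 or -2, the study's criterion. The number of arrays limits the precision, and no p-value was computed. Spot noise came from those of the 300 probes printed 10 times that had enough non-outlier spots well above background on the array. The 5 nearest in signal were used.

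The 8 genes and the lists were chosen with earlier results of these data known. All 8 genes were named at every probe. From the lists, called genes and the highest and lowest ratios measured on both arrays were named, with malonyl-CoA and the carnitine shuttle in full. Some ketogenesis genes are not reported here. Probe positions are those of the array files (mm9), and no mm9 gene models were used, so exon and UTR were not assigned. RefSeq held all 8 genes, and 11 of 12 probe accessions matched. Calculations used Python 3.11.15, numpy 2.4.6, pandas 2.3.3, R 4.3.3 and limma 3.58.1 (normexp with an offset of 50). The calling steps were tested on simulated data whose changes were larger than the calling thresholds, so smaller changes were not tested.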

Additional observations from a re-analysis of the deposited data

How the results depend on the processing

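None of the 8 genes was called in either direction under any of the 11 alternatives. Only 6 of them alter a ratio of these genes, and 5 leave all 8 ratios as they were. Across the 6, 7 of the 8 genes kept the sign of their ratio, and Cpt2 ran from -0.17 to 0.04. The median of the 8 lay between -0.18 and -0.07, and Cpt1a between -0.66 and -0.46, the latter in the deposited values. Calls among the other pathway genes, 7 higher and 2 lower, depended more on the setting. The counts higher were 11 with normexp, 3 with the deposited values, 12 without a filter on dim probes, 2 without a floor and 14 with a robust Z score. The counts lower were 1 with quantile normalization, 1 with the deposited values, 0 without a floor and 5 with a robust Z score. Of the 9 called genes, 8 lost their call without a floor, with unchanged ratios, because the threshold widened, and 7 with the deposited values, where all 9 kept their sign. Over all genes, 1355 were higher without a filter, against 705, and a robust Z score called 1722 higher and 1443 lower, against 705 and 566. Without the filter the median of all genes moved from -0.05 to -0.47, because dim probes sit at floors that differ between the arrays. Against its own array, the deposited Drp1LiKO column reached a Spearman's rho of 0.958 across probes, and the control column reached 1. Leaving out a replicate was not possible with 1 array per genotype. No paired analysis was possible because each genotype has 1 array and the labels give no shared replicate numbers.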
